A study of Mus musculus with 17 samples.

Results

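The 10 genes described here encode receptors through which mediators of inflammation act on sensory neurons. They are the bradykinin receptors Bdkrb1 and Bdkrb2, the protease-activated receptors F2r, F2rl1 and F2rl2, the nucleotide receptor P2ry1, the prostanoid receptors Ptger3, Ptger4 and Ptgir, and the TNF receptor Tnfrsf1a. Each was taken from a list of such receptors by its exact symbol, and all 10 were found among the 19152 genes of the deposited tables. RNA-Seq was performed on lumbar dorsal root ganglia (DRGs), which hold the cell bodies of sensory neurons, of C57BL/6 mice. Each library pools 4 DRGs of a mouse, L4 and L5 from each side, so the mouse is the replicate. The 17 libraries fall in 4 groups. Mtor-cKO Adv mice (Adv-Cre::Mtorfl/fl in the labels) gave 4 libraries 7 days after bilateral spared nerve injury (SNI), and Mtor fl/fl mice, which the labels also call WT, gave 5. In SNI the tibial and common peroneal branches of the sciatic nerve are tied and cut and the sural branch is left. Untreated mice in the basal state gave 4 Mtor-cKO Adv and 4 Mtor fl/fl libraries (baseline). In both genotypes the Mtor alleles are floxed, and only Mtor-cKO Adv mice carry Cre driven from the advillin gene, which recombines Mtor in peripheral sensory neurons and leaves it in glia, immune cells and vessels of the ganglion. The study's methods name adults of both sexes for biochemical and behavioral tests and do not state the sex of the RNA-Seq mice. The labels name no sham-operated group, so surgery and nerve section cannot be told apart here.

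Nociceptors carry receptors that let them sense tissue damage, since kinins, proteases released by clotting and mast cells, nucleotides from broken cells, prostaglandins and TNF are all set free at an injury. Most of these receptors are G protein-coupled: Gq opens the phospholipase C pathway, Gs raises cAMP and Gi lowers it, and the kinases that follow lower the threshold of channels such as TRPV1, TRPA1 and sodium channels. Protease-activated receptors are cut by their protease and then bound by their own new end, and TNF receptor 1 instead signals through a death domain to NF-kB and MAP kinases.

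F2r was higher in DRGs of Mtor-cKO Adv mice both before and after injury, F2rl2 was lower in Mtor-cKO Adv DRGs at day 7, and Bdkrb2 rose after SNI in Mtor fl/fl DRGs. These were the only calls among the 8 receptors tested with edgeR's quasi-likelihood test at an adjusted p under 0.05, the threshold used for all counts below. A gene was tested when its mean reached 1 FPKM (fragments per kilobase of transcript, scaled to the mapped reads) in at least 1 group, which held for 13408 genes and for 8 of the 10 receptors, all but Bdkrb1 and F2rl1. Between genotypes at day 7, 1 of the 8 was higher and 1 lower, where 12.9% of all genes tested were higher and 13.1% lower. At baseline 1 of the 8 was higher and none lower in Mtor-cKO Adv DRGs, beside 7.97% and 7.91% of all genes tested. Of the 8, F2r was also past a 2-fold change at both time points, as were 1.14% of all genes tested at day 7 and 0.47% at baseline in that direction. After SNI 1 of the 8 rose and none fell in Mtor fl/fl DRGs, beside 4.66% and 2.58% of all genes. After SNI in Mtor-cKO Adv DRGs none of the 8 passed edgeR, although 3 had an unadjusted p under 0.05 and DESeq2 called 1, beside 4.57% of genes higher and 2.39% lower. For the difference of the injury effects between genotypes, none of the 8 passed edgeR, although 1 had an unadjusted p under 0.05, and DESeq2 called none, beside 0.0671% of genes with a positive and 0.0149% with a negative value. Counts of 0 or 1 per direction among 8 receptors are read as no more than such shares.

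**Figure D1:**
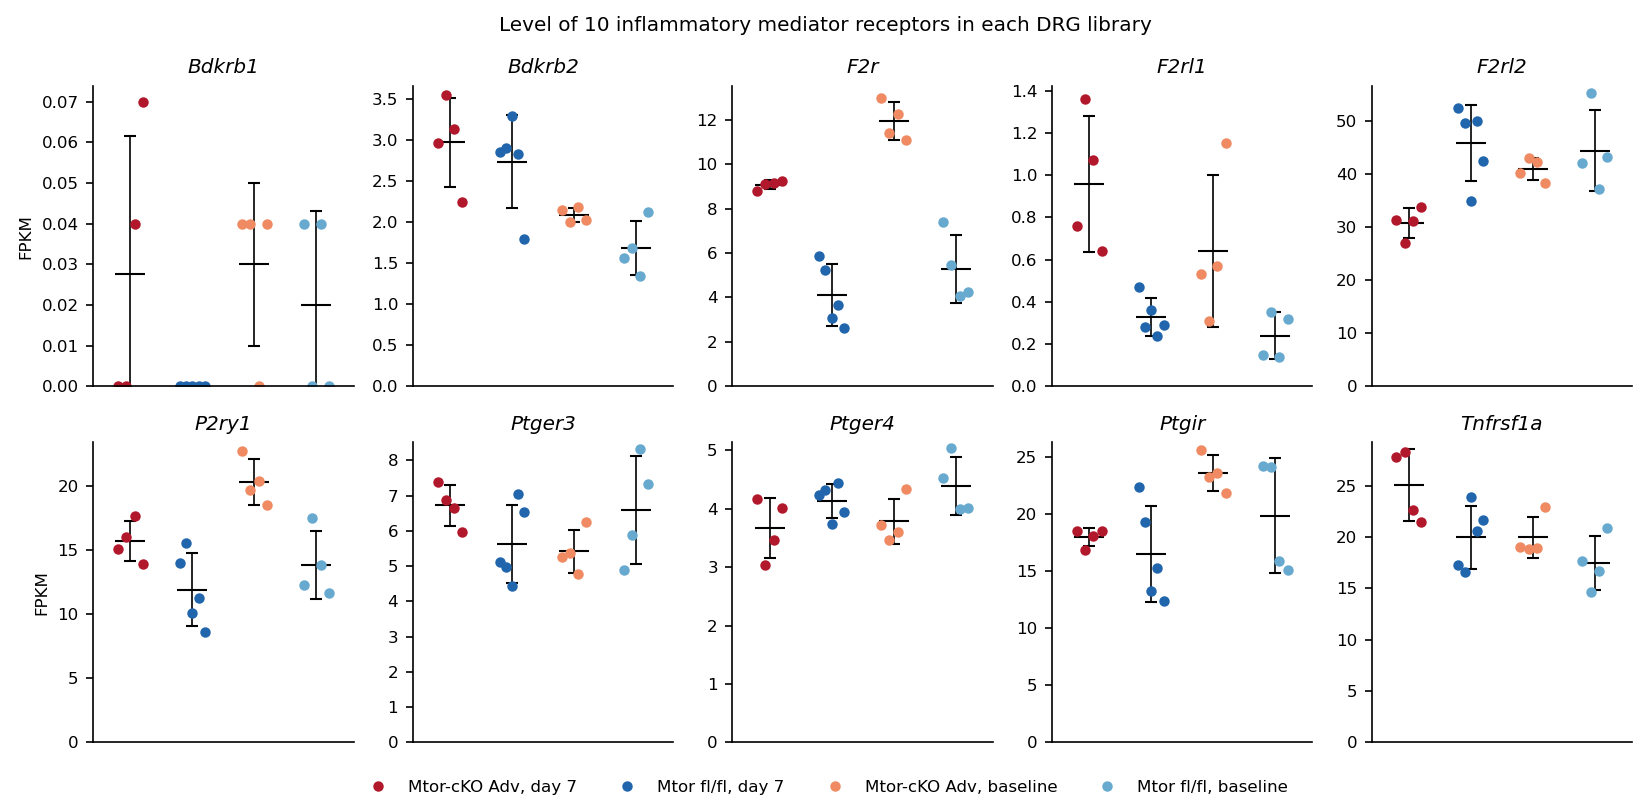
Level (FPKM, linear axis from 0) of the 10 receptors in each of the 17 DRG libraries. Points are mice, horizontal ticks group means and bars SD (n = 4, 5, 4 and 4 from left to right); F2r lies at 8.82 FPKM or above in all 8 Mtor-cKO Adv libraries and at 7.39 FPKM or below in all 9 Mtor fl/fl libraries, and F2rl2 is lowest in the Mtor-cKO Adv day 7 group.

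The genes past the test include a neighbouring pair. On GRCm38 (GENCODE M21), F2r lies on the minus strand of chromosome 13 from 95601803 to 95618487, F2rl2 on the plus strand from 95696853 to 95702739, and F2rl1 on the minus strand from 95511732 to 95525227. The start sites of F2r and F2rl2 are 78.4 kb apart. F2r was higher and F2rl2 lower in Mtor-cKO Adv DRGs at day 7, so the stretches around their starts are shown for comparison, with that of Bdkrb2 (chromosome 12, plus strand, gene from 105563226 to 105595237). Each runs from 250 bases before to 50 bases after the RefSeq start on GRCm38.p6, which need not be the GENCODE start. Sequences read 5′ to 3′ on the strand of the gene, and capitals mark matches to the GC box GGGCGG, the AP-1 site TGACTCA or TGAGTCA, the CRE TGACGTCA and the GAS element TTCNNNGAA on either strand.
F2r, chr13:95618417-95618716, minus strand: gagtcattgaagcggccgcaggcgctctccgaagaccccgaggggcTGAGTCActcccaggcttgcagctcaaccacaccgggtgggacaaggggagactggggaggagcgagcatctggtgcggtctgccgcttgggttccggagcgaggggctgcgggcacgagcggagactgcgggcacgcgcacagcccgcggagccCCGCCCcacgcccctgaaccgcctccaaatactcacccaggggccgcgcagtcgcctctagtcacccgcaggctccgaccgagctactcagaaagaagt
F2rl2, chr13:95696670-95696969, plus strand: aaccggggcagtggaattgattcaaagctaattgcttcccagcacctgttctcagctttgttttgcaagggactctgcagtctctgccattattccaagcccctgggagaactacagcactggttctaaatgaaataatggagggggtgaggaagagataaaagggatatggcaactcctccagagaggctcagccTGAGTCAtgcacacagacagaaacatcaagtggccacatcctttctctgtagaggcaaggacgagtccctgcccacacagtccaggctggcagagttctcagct
Bdkrb2, chr12:105562922-105563221, plus strand: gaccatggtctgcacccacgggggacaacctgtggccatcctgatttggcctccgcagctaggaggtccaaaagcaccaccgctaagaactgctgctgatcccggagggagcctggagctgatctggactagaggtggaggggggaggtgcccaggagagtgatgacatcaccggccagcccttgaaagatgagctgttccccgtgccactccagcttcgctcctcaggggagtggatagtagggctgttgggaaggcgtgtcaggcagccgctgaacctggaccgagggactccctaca
F2r and F2rl2 each held 1 AP-1 site, beginning 204 bases before the start of F2r and 54 bases before the start of F2rl2, a motif in 5.2% of all 32851 promoters of the same length. F2r also held 1 GC box, 49 bases before its start, a motif in 35.7% of all promoters. Bdkrb2 held none of the 4 motifs. The stretches of F2r (68.7% G and C) and Bdkrb2 (61.7%) lay above the median of all promoters (52.7%), and that of F2rl2 (50.7%) below it. Of the 10 receptors, 8 matched the RefSeq table. Among the other 5, the GC box was found in P2ry1, Ptger3, Ptgir and Ptger4 and the GAS element, present in 8.3% of all promoters, in Tnfrsf1a. None of the 8 held a CRE (1.79% of all promoters), its core TGACG, which the CRE contains (20.8%), or the E-box CACGTG (7.15%).

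The libraries held 17060876 to 21076542 expected counts in all (median 19375972). Mtor, the check of the labels, was at 3.44 to 5.83 FPKM in Mtor-cKO Adv and 5.96 to 14.43 FPKM in Mtor fl/fl libraries at day 7, and at 3.16 to 6.36 FPKM in Mtor-cKO Adv and 8.58 to 15.97 FPKM in Mtor fl/fl libraries at baseline, with no overlap at either time. The 6 injured neuron markers summed to 836.9 to 1379 FPKM in Mtor-cKO Adv and 1012 to 2492 FPKM in Mtor fl/fl libraries after SNI, against 39.35 to 48.88 and 37.07 to 48.32 FPKM at baseline. The 10 pan-neuronal markers, all detected, summed to 4318 to 4606 FPKM in Mtor-cKO Adv and 5736 to 6951 FPKM in Mtor fl/fl libraries at day 7, and to 4983 to 5233 FPKM in Mtor-cKO Adv and 6558 to 7536 FPKM in Mtor fl/fl libraries at baseline. In bulk DRGs, fewer cells of a type and less RNA per cell cannot be told apart. By macrophage markers, Mtor fl/fl replicates 1 and 2 stood apart from the other Mtor fl/fl libraries at both times. The 13 markers summed to 170.6 and 177.8 FPKM in them and to 381.2 to 559.7 FPKM in replicates 3 to 5 at day 7. At baseline the sums were 85.46 and 82.32 FPKM against 320.9 and 392.1 FPKM in replicates 3 and 4, since that group has no replicate 5. Fits against either set of Mtor fl/fl libraries alone were added after this gap was seen. Leaving out a set can narrow the spread and shift the mean of the group. A pass in such a fit is therefore not read as a result. The pan-neuronal sums left no such gap at day 7, with 6634 FPKM in replicate 4 beside 6951 and 6705 FPKM in replicates 1 and 2. At day 7 the 7 skeletal muscle markers summed to 25.85 to 423.4 FPKM in Mtor-cKO Adv and 2.94 to 30.89 FPKM in Mtor fl/fl libraries. All 7 were higher in Mtor-cKO Adv DRGs there, beside 12.9% of all genes tested, and none passed at baseline. The 4 adipocyte markers summed to 32.12 to 64.57 and 2.42 to 37.35 FPKM at day 7, and none passed. The part of such tissue in the day 7 differences was not tested. In 2 Mtor-cKO Adv libraries, day 7 replicate 1 and baseline replicate 2, the skeletal muscle markers reached 423.4 and 480.7 FPKM, while all others were at 69.01 FPKM or below. A fit without these 2 libraries is among the alternatives. Its values are given for F2r between genotypes and for Ptger4 in the difference of injury effects. Its values for the other receptors and for the pathway lists are not reported here.

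F2rl2 was the most abundant of the receptors and Bdkrb1 the least in every group. Since FPKM values are scaled to transcript length, levels can be compared between genes. In Mtor-cKO Adv DRGs at day 7 the order of mean FPKM was F2rl2, Tnfrsf1a, Ptgir, P2ry1, F2r, Ptger3, Ptger4, Bdkrb2, F2rl1 and Bdkrb1. The ranges of F2rl2 and Tnfrsf1a, of Ptgir and P2ry1, and of Ptger4 and Bdkrb2 overlapped between neighbours there. In Mtor fl/fl DRGs at baseline the order was F2rl2, Ptgir, Tnfrsf1a, P2ry1, Ptger3, F2r, Ptger4, Bdkrb2, F2rl1 and Bdkrb1. In that group Ptgir overlapped Tnfrsf1a, Tnfrsf1a overlapped P2ry1, Ptger3 overlapped F2r and F2r overlapped Ptger4. F2r stood above Ptger3 and Ptger4 without overlap in both Mtor-cKO Adv groups. In Mtor fl/fl DRGs its range overlapped that of its neighbours Ptger3 and Ptger4 at baseline, and at day 7 Ptger3, Ptger4, F2r and Bdkrb2 each overlapped the next in the order.

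The bradykinin receptors couple to Gq and drive acute pain and edema. Bdkrb2 encodes the receptor that is present in resting tissue and binds intact bradykinin. At day 7 it was at 2.97, 3.55, 3.13 and 2.25 FPKM in Mtor-cKO Adv libraries (replicates 1 to 4), against 2.15, 2.00, 2.18 and 2.03 FPKM in Mtor-cKO Adv libraries at baseline. In Mtor fl/fl libraries it was at 2.86, 2.91, 3.30, 2.83 and 1.79 FPKM at day 7 (replicates 1 to 5), against 1.56, 1.69, 1.35 and 2.13 FPKM at baseline. All Mtor-cKO Adv day 7 libraries lay above the Mtor-cKO Adv baseline libraries, whereas among Mtor fl/fl libraries day 7 replicate 5 fell within the baseline range. Bdkrb2 rose by 0.72 on the log2 scale in Mtor fl/fl DRGs (approximate SE 0.18, edgeR adjusted p = 0.0223). The change in Mtor-cKO Adv DRGs was 0.40 (approximate SE 0.19, edgeR adjusted p = 0.192). The difference between these injury effects was -0.32 (approximate SE 0.26, edgeR adjusted p = 0.632), so they were not shown to differ. The call in Mtor fl/fl DRGs was lost in edgeR without day 7 replicate 3 (adjusted p = 0.0659), baseline replicate 1 (adjusted p = 0.0611) or baseline replicate 3 (adjusted p = 0.0741), and without Mtor fl/fl replicates 1 and 2 (adjusted p = 0.0864). It was also lost with the Mtor fl/fl libraries fitted alone (edgeR adjusted p = 0.1145). Between genotypes, the log2 fold change of Bdkrb2 was 0.06 at day 7 (edgeR adjusted p = 0.833) and 0.38 at baseline (edgeR adjusted p = 0.201).

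Bdkrb1, whose product binds kinin fragments that lack the last arginine and is known as the inducible bradykinin receptor, was at the limit of detection in all groups. It lies on chromosome 12 from 105603085 to 105605428, and its start is 39.9 kb from that of Bdkrb2. It had 0, 0, 1 and 2 counts in Mtor-cKO Adv libraries and 0 counts in each of the 5 Mtor fl/fl libraries at day 7. At baseline it had 1, 1, 0 and 1 counts in Mtor-cKO Adv libraries and 1, 0, 1 and 0 counts in Mtor fl/fl libraries. The 0 counts over the Mtor fl/fl day 7 libraries allow up to 0.0306 CPM (3 counts in 98069043), a limit that covers counting error only. No fold is given, since each group was at or under 3 counts in all, and an induction of Bdkrb1 by SNI was not detectable at this depth.

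F2r encodes PAR1, the thrombin receptor, which couples to several G proteins. At day 7 it was at 8.82, 9.11, 9.16 and 9.27 FPKM in Mtor-cKO Adv libraries, against 5.88, 5.25, 3.09, 3.68 and 2.61 FPKM in Mtor fl/fl libraries. At baseline it was at 13.01, 11.40, 12.26 and 11.11 FPKM in Mtor-cKO Adv libraries, against 7.39, 5.48, 4.06 and 4.26 FPKM in Mtor fl/fl libraries. At each time, all Mtor-cKO Adv libraries were above all Mtor fl/fl libraries. The mean was 9.09 ± 0.192 FPKM in Mtor-cKO Adv (SD, n = 4) and 4.10 ± 1.41 FPKM in Mtor fl/fl DRGs (SD, n = 5) at day 7, which gave a log2 fold change of 1.10 (approximate SE 0.24, edgeR adjusted p = 0.00300). At baseline it was 11.95 ± 0.862 FPKM in Mtor-cKO Adv and 5.30 ± 1.53 FPKM in Mtor fl/fl DRGs (SD, n = 4 each), which gave 1.16 on the log2 scale (approximate SE 0.25, edgeR adjusted p = 0.00486). F2r passed under all 28 alternatives at each time point, with an edgeR, DESeq2 or limma adjusted p of at most 0.0119 at day 7 and 0.0184 at baseline. The size of the difference varied more: against Mtor fl/fl replicates 1 and 2 alone it was 0.62 at day 7 and 0.81 at baseline, and against replicates 3 to 5 alone 1.51 and 1.59. Without the 2 libraries high in skeletal muscle markers it was 1.12 and 1.17.

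Of the 10 pan-neuronal markers, 6 were lower and none higher in Mtor-cKO Adv DRGs at day 7, beside 13.1% and 12.9% of all genes tested. At baseline 3 were lower and 1 higher, beside 7.91% and 7.97%. Most of the gap in their sum came from the neurofilament genes Nefl, with means of 663.6 FPKM in Mtor-cKO Adv and 1526 FPKM in Mtor fl/fl DRGs at day 7 and 793.3 and 1979 FPKM at baseline, and Nefm, with 330.2 and 711.3 FPKM at day 7 and 444.4 and 970.0 FPKM at baseline. Prph was higher at baseline, with 1167 FPKM in Mtor-cKO Adv and 905.8 FPKM in Mtor fl/fl DRGs. Within groups F2r varied with these markers. Over the 17 libraries, after subtraction of each group's mean, Pearson's r of its log2 CPM (counts scaled to a common library size) was 0.946 with the mean of the 10 pan-neuronal markers and -0.852 with that of the 13 macrophage markers. These libraries share their depth normalization, so a rise in one cell type lowers the others, and r is given as a description. F2r is also found in endothelium and fibroblasts. At day 7 the 9 endothelial and mural markers summed to 104.6 to 121.2 FPKM in Mtor-cKO Adv and 74.34 to 117.5 FPKM in Mtor fl/fl libraries, and to 77.52 to 109.8 and 78.37 to 157.9 FPKM at baseline. The 7 fibroblast markers summed to 689.8 to 772.9 FPKM in Mtor-cKO Adv and 289.7 to 704.1 FPKM in Mtor fl/fl libraries at day 7, and to 419.5 to 706.5 and 294.7 to 861.8 FPKM at baseline. The 6 mast cell and platelet markers summed to 42.42 to 47.26 FPKM in Mtor-cKO Adv and 25.02 to 45.20 FPKM in Mtor fl/fl libraries at day 7, and to 29.65 to 48.23 and 22.75 to 45.77 FPKM at baseline. The sums of these 3 lists overlapped between genotypes at each time. At day 7 in Mtor-cKO Adv DRGs 4 of 9 endothelial and mural, 2 of 7 fibroblast and 1 of 5 tested mast cell and platelet markers were higher, beside 12.9% of all genes tested. At baseline none, none and 1 were higher, beside 7.97%. The part of these cell types in the F2r difference was not tested. After SNI, the log2 fold change of F2r was -0.42 in Mtor-cKO Adv DRGs (edgeR adjusted p = 0.290) and -0.36 in Mtor fl/fl DRGs (edgeR adjusted p = 0.449).

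**Figure D2:**
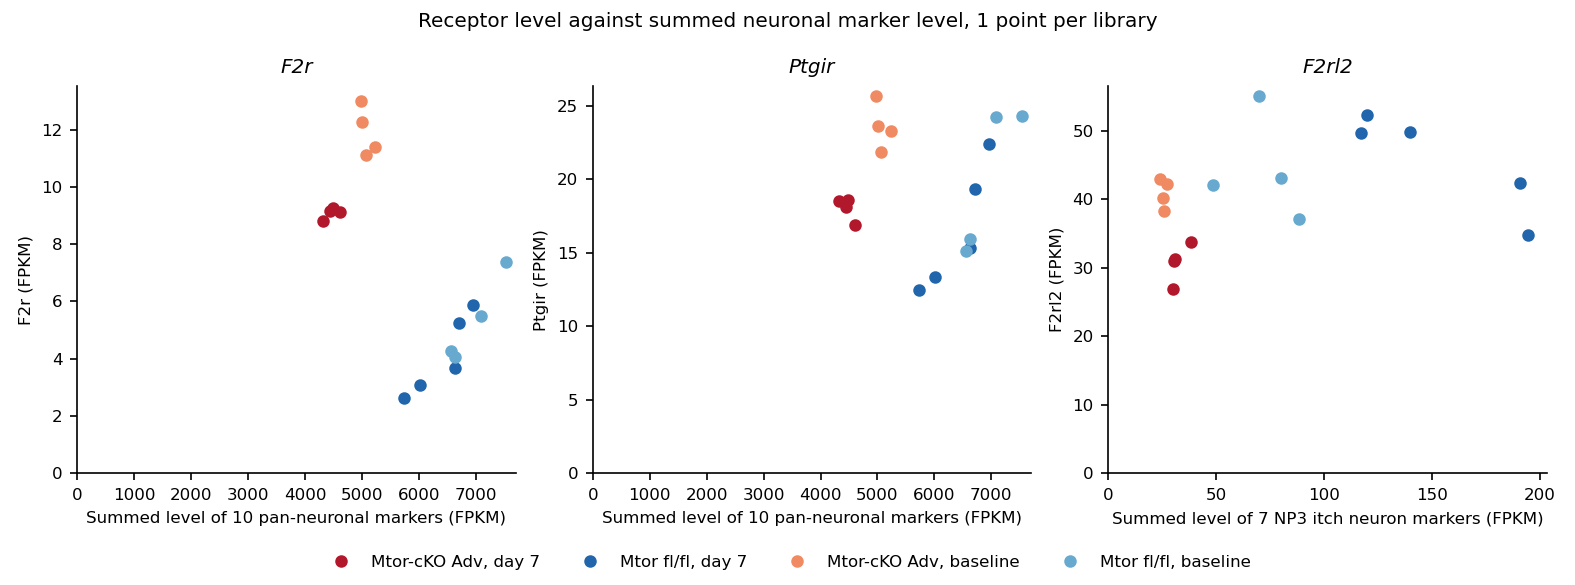
Level of F2r, Ptgir and F2rl2 (FPKM, vertical) against the summed level of neuronal marker genes (FPKM, horizontal) in the 17 libraries, 1 point per mouse. Mtor-cKO Adv libraries have lower pan-neuronal sums (4318 to 5233 FPKM) than Mtor fl/fl libraries (5736 to 7536 FPKM), a gap that lies mostly in Nefl and Nefm, and higher F2r. In Mtor-cKO Adv mice, NP3 marker sums are 30.03 to 38.38 FPKM at day 7 and lower still at baseline (23.95 to 27.21 FPKM), where F2rl2 is higher (38.23 to 42.98 FPKM).

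F2rl2 encodes PAR3, a thrombin-cleaved receptor that in mice acts largely as a cofactor for other protease-activated receptors and is abundant in small sensory neurons. At day 7 it was at 31.22, 26.93, 31.03 and 33.67 FPKM in Mtor-cKO Adv libraries, against 52.33, 49.61, 34.78, 49.82 and 42.30 FPKM in Mtor fl/fl libraries. Before injury it stood at 40.11, 42.98, 42.25 and 38.23 FPKM in Mtor-cKO Adv libraries, against 42.00, 55.09, 37.14 and 43.12 FPKM in Mtor fl/fl libraries. The genotypes did not overlap at day 7, where the highest Mtor-cKO Adv library stood just below Mtor fl/fl replicate 3, and overlapped at baseline. The log2 fold change between genotypes was -0.62 at day 7 (approximate SE 0.15, edgeR adjusted p = 0.00584) and -0.12 at baseline (approximate SE 0.15, edgeR adjusted p = 0.640). The day 7 difference passed under all 28 alternatives (adjusted p at most 0.0246 over edgeR, DESeq2 and limma), and was -0.82 against Mtor fl/fl replicates 1 and 2 alone and -0.48 against replicates 3 to 5 alone. The baseline difference did not hold its direction: it was -0.33 against Mtor fl/fl replicates 1 and 2 (edgeR adjusted p = 0.0292) and 0.09 against the others (edgeR adjusted p = 0.577), and 0.04 without Mtor fl/fl baseline replicate 2.

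After SNI, F2rl2 in Mtor-cKO Adv DRGs was lower in each day 7 library than in each baseline library. The log2 fold change was -0.44 (approximate SE 0.15, edgeR adjusted p = 0.0882), and it was 0.05 in Mtor fl/fl DRGs (approximate SE 0.15, edgeR adjusted p = 0.909). The difference of these injury effects was -0.49 (approximate SE 0.21, unadjusted p = 0.0330, edgeR adjusted p = 0.341), so a difference between the genotypes in the response of F2rl2 was not shown. The change in Mtor-cKO Adv DRGs passed with DESeq2 (adjusted p = 0.0312), in edgeR without Mtor fl/fl baseline replicate 2 (adjusted p = 0.0465), and with the Mtor-cKO Adv libraries fitted alone (adjusted p = 0.00194). F2rl2 lies inside Iqgap2, which encodes a scaffold protein and is transcribed from the other strand, and their exons do not overlap. Iqgap2 averaged 4.79 ± 0.358 FPKM in Mtor-cKO Adv (SD, n = 4) and 3.19 ± 1.23 FPKM in Mtor fl/fl DRGs (SD, n = 5) at day 7. Its log2 difference between genotypes was 0.69 at day 7 (edgeR adjusted p = 0.0576), opposite in sign to that of F2rl2. At baseline it was -0.54 (edgeR adjusted p = 0.202), of the same sign as that of F2rl2.

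Markers of NP3 itch neurons separated the genotypes at both times, and those of other nociceptors in part. The 7 markers of NP3 itch neurons summed to 30.03 to 38.38 FPKM in Mtor-cKO Adv and 117.1 to 194.6 FPKM in Mtor fl/fl libraries at day 7. At baseline they summed to 23.95 to 27.21 and 48.42 to 88.17 FPKM, and all 7 were lower at both times. Nts had the highest mean of them in Mtor fl/fl DRGs at day 7, with 82.2 FPKM against 7.47 FPKM at baseline. In Mtor-cKO Adv DRGs its means were 4.23 FPKM at day 7 and 1.59 FPKM at baseline. The study reports Nts as a gene induced by injury and reduced by loss of mTOR. The day 7 sums are therefore not read as a measure of these neurons alone. The 7 markers of nonpeptidergic nociceptors summed to 150.2 to 175.9 FPKM in Mtor-cKO Adv and 129.4 to 207.2 FPKM in Mtor fl/fl libraries at day 7, with 3 lower and 1 higher. The 5 markers of peptidergic nociceptors summed to 784.3 to 1071 FPKM in Mtor-cKO Adv and 1043 to 2021 FPKM in Mtor fl/fl libraries at day 7, with 3 lower. Of all genes tested, 12.9% were higher and 13.1% lower at day 7, and 7.97% and 7.91% at baseline. Within groups, r of F2rl2 was 0.862 with the nonpeptidergic markers, 0.792 with the pan-neuronal and 0.713 with the peptidergic ones (17 libraries). The part of these cell types in the F2rl2 difference was not tested.

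F2rl1 encodes PAR2, the receptor of trypsin-like proteases and mast cell tryptase. It stayed under the minimum level, with a highest group mean of 0.958 FPKM in Mtor-cKO Adv DRGs at day 7, and was tested only where low genes were kept. At day 7 it was at 0.76, 1.36, 1.07 and 0.64 FPKM in Mtor-cKO Adv libraries (36.30 to 78.27 expected counts), against 0.47, 0.28, 0.36, 0.24 and 0.29 FPKM in Mtor fl/fl libraries (13.98 to 25.24). In untreated mice it was at 0.53, 0.31, 0.57 and 1.15 FPKM in Mtor-cKO Adv libraries (16.10 to 67.08 expected counts), against 0.15, 0.35, 0.14 and 0.32 FPKM in Mtor fl/fl libraries (7.03 to 19.06). The genotypes did not overlap at day 7 and overlapped at baseline through Mtor-cKO Adv replicate 2, a library high in skeletal muscle markers. With no filter on low genes, the log2 fold change between genotypes was 1.52 at day 7 (approximate SE 0.37, edgeR adjusted p = 0.00847) and 1.42 at baseline (approximate SE 0.41, edgeR adjusted p = 0.0380), in a fit that called 8.77% of 19061 genes higher at day 7 and 5.07% at baseline. With edgeR's own filter, filterByExpr, the adjusted p was 0.00800 at day 7 and 0.0322 at baseline. Its log2 fold change after SNI was 0.56 in Mtor-cKO Adv DRGs (edgeR adjusted p = 0.413) and 0.45 in Mtor fl/fl DRGs (edgeR adjusted p = 0.652) with no filter.

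P2ry1 encodes a Gq-coupled receptor of ADP that is found in sensory neurons. At day 7 it was at 15.12, 16.06, 17.66 and 13.94 FPKM in Mtor-cKO Adv libraries, against 14, 15.57, 10.13, 11.27 and 8.65 FPKM in Mtor fl/fl libraries. At baseline it was at 22.72, 19.72, 20.37 and 18.49 FPKM in Mtor-cKO Adv libraries, against 12.26, 17.55, 13.85 and 11.65 FPKM in Mtor fl/fl libraries. The genotypes did not overlap at baseline and overlapped at day 7, where Mtor fl/fl replicates 1 and 2 reached into the Mtor-cKO Adv range. The difference did not pass, with a log2 fold change of 0.36 at day 7 (approximate SE 0.18, edgeR adjusted p = 0.158) and 0.56 at baseline (approximate SE 0.19, edgeR adjusted p = 0.0591). The baseline value passed under 8 of 28 alternatives, among them DESeq2 (adjusted p = 0.0301) and edgeR without Mtor fl/fl baseline replicate 2 (0.74, adjusted p = 0.0127), day 7 replicate 2 (adjusted p = 0.0461) or day 7 replicate 5 (adjusted p = 0.0274). Against Mtor fl/fl replicates 3 to 5 alone, a split made after the data were seen, the value was 0.63 for day 7 (edgeR adjusted p = 0.00393). For baseline, against replicates 3 and 4, it was 0.76 (edgeR adjusted p = 0.00274). After SNI each Mtor-cKO Adv library was below each at baseline, with a log2 difference of -0.40 (edgeR adjusted p = 0.206), and it was -0.20 in Mtor fl/fl DRGs (edgeR adjusted p = 0.631). Exons of P2ry1 overlap an antisense gene, Gm37035, and the sources do not state whether counting used strand, so reads of the pair cannot be told apart.

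Among the prostanoid receptors no comparison passed the edgeR test, and Ptgir, the receptor of prostacyclin that couples to Gs, was the most abundant. At day 7 Ptgir was at 18.52, 16.91, 18.13 and 18.59 FPKM in Mtor-cKO Adv libraries, against 22.38, 19.33, 13.31, 15.28 and 12.45 FPKM in Mtor fl/fl libraries. Before injury it stood at 25.67, 23.29, 23.64 and 21.85 FPKM in Mtor-cKO Adv libraries, against 24.26, 24.19, 15.94 and 15.12 FPKM in Mtor fl/fl libraries. Mtor fl/fl replicates 1 and 2 were above the other Mtor fl/fl libraries at both times, and the genotypes overlapped through them. The log2 fold change between genotypes was 0.08 at day 7 (approximate SE 0.20, edgeR adjusted p = 0.813) and 0.23 at baseline (approximate SE 0.21, edgeR adjusted p = 0.516). Its direction turned with the Mtor fl/fl libraries used: against replicates 1 and 2 alone it was -0.30 at day 7 (edgeR adjusted p = 0.00748) and -0.12 at baseline (edgeR adjusted p = 0.250), and against replicates 3 to 5 alone 0.37 (edgeR adjusted p = 0.0105) and 0.67 (edgeR adjusted p = 0.000870). No direction is therefore read for Ptgir between genotypes. After SNI it was lower in each Mtor-cKO Adv library than in each at baseline, with a log2 difference of -0.42 (edgeR adjusted p = 0.228), and in Mtor fl/fl DRGs the value was -0.26 (edgeR adjusted p = 0.533).

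Ptger3 and Ptger4 encode the EP3 and EP4 receptors of prostaglandin E2, which couple mainly to Gi and to Gs. At day 7 Ptger3 was at 7.38, 6.89, 6.65 and 5.97 FPKM in Mtor-cKO Adv libraries, against 5.11, 4.99, 4.44, 7.04 and 6.53 FPKM in Mtor fl/fl libraries. In untreated mice it was at 5.27, 5.37, 4.78 and 6.26 FPKM in Mtor-cKO Adv libraries, against 4.88, 5.87, 8.32 and 7.33 FPKM in Mtor fl/fl libraries. Genotypes and time points overlapped, and the 4 log2 fold changes lay between -0.19 and 0.17 (edgeR adjusted p from 0.287 to 0.525). Ptger4 was at 4.17, 3.04, 3.47 and 4.01 FPKM in Mtor-cKO Adv libraries at day 7, against 4.23, 4.32, 3.74, 4.45 and 3.94 FPKM in Mtor fl/fl libraries. At baseline it was at 3.72, 3.47, 3.61 and 4.34 FPKM in Mtor-cKO Adv libraries, against 4.53, 5.04, 3.99 and 4.01 FPKM in Mtor fl/fl libraries. All groups of Ptger4 overlapped, with log2 fold changes between -0.24 and -0.07 (edgeR adjusted p from 0.228 to 0.784). Against Mtor fl/fl replicates 1 and 2 alone the genotype difference passed, at -0.305 for day 7 (edgeR adjusted p = 0.0482) and -0.438 for baseline (edgeR adjusted p = 0.0125), and it did not pass against replicates 3 to 5 alone. Exons of Ptger4 overlap Ttc33 and the pseudogene Gm15937 on the other strand, so its level may hold their reads.

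Tnfrsf1a encodes TNF receptor 1, which most cells of a ganglion can express. At day 7 it was at 27.78, 28.28, 22.62 and 21.49 FPKM in Mtor-cKO Adv libraries, against 17.23, 16.59, 23.91, 20.54 and 21.61 FPKM in Mtor fl/fl libraries. Before injury it stood at 19.06, 18.86, 18.95 and 22.96 FPKM in Mtor-cKO Adv libraries, against 17.68, 14.63, 16.73 and 20.85 FPKM in Mtor fl/fl libraries. The groups overlapped in every comparison. The log2 fold change between genotypes was 0.30 at day 7 (approximate SE 0.11, edgeR adjusted p = 0.0535) and 0.20 at baseline (approximate SE 0.11, edgeR adjusted p = 0.275). After SNI it was 0.30 in Mtor-cKO Adv DRGs (edgeR adjusted p = 0.112) and 0.20 in Mtor fl/fl DRGs (edgeR adjusted p = 0.330). The day 7 difference passed in edgeR without Mtor-cKO Adv day 7 replicate 4 (0.37, adjusted p = 0.0300), Mtor fl/fl day 7 replicate 3 (0.37, adjusted p = 0.0199) or Mtor fl/fl baseline replicate 4 (0.30, adjusted p = 0.0491), and against Mtor fl/fl replicates 1 and 2 alone (0.48, adjusted p = 0.00671). Within groups, r of Tnfrsf1a was 0.596 with the macrophage markers and -0.384 with the pan-neuronal markers, the only receptor besides Ptger3 with that pair of signs. The part of macrophages in its level was not tested.

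**Figure D3:**
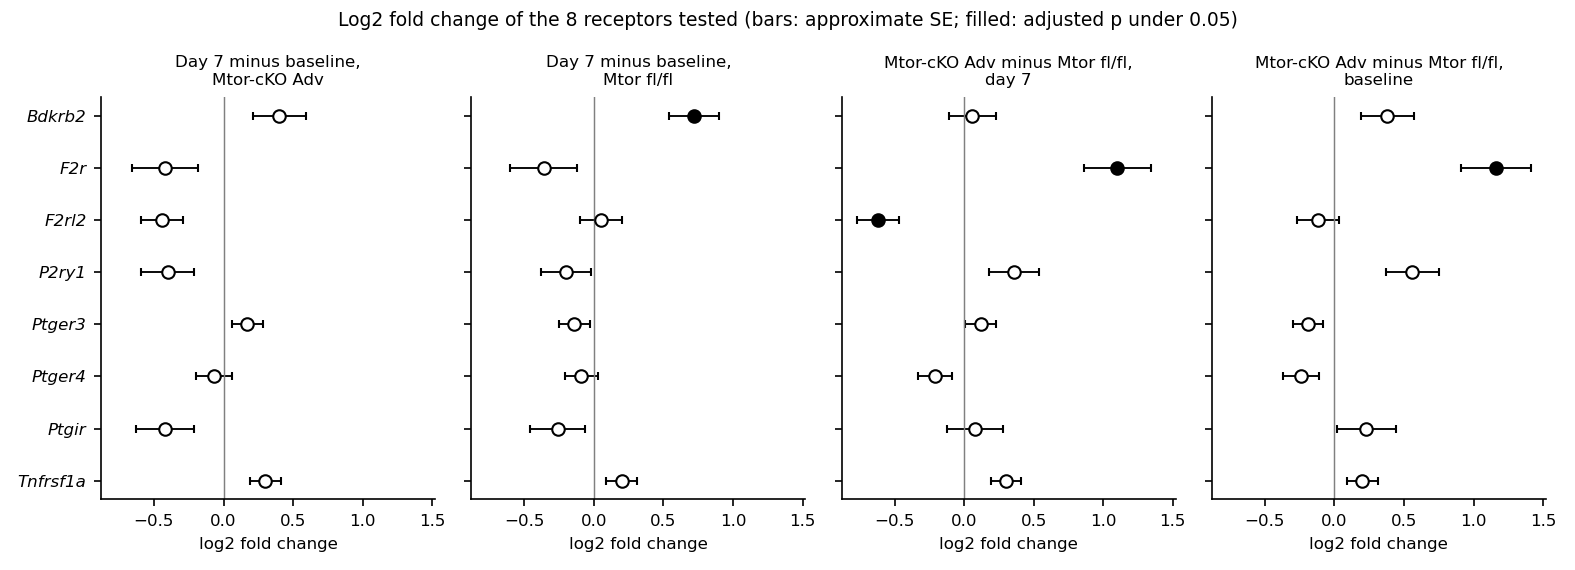
Log2 fold change (horizontal) of the 8 receptors tested, by row, in 4 comparisons, from edgeR over all 17 libraries. Bars are approximate SE and filled points have an adjusted p under 0.05, namely Bdkrb2 after SNI in Mtor fl/fl DRGs (0.72), F2r at day 7 (1.10) and baseline (1.16) and F2rl2 at day 7 (-0.62).

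After SNI, libraries of the 2 Mtor-cKO Adv groups did not overlap for 5 of the 10 receptors: Bdkrb2 was higher at day 7, and F2r, F2rl2, P2ry1 and Ptgir were lower. Of all 19152 genes, 12.6% were higher and 9.6% lower without overlap in that comparison. In Mtor fl/fl DRGs no receptor separated day 7 from baseline, beside 3.98% of all genes higher and 2.69% lower. Between genotypes, F2r and F2rl1 were higher and F2rl2 lower without overlap at day 7, beside 12.1% and 8.8% of all genes. At baseline F2r and P2ry1 were higher without overlap and none was lower, beside 8.2% and 7.2% of all genes. In the fit of all groups the spread of the Mtor fl/fl libraries also sets the error of the Mtor-cKO Adv comparison. With the Mtor-cKO Adv libraries fitted alone, Bdkrb2 (adjusted p = 0.0447) and Tnfrsf1a (adjusted p = 0.0396) rose, and F2r (adjusted p = 0.00189), F2rl2, P2ry1 (adjusted p = 0.0115) and Ptgir (adjusted p = 0.00138) fell in edgeR. That fit called 16.9% of all genes higher and 14.3% lower. The 10 pan-neuronal markers were also lower at day 7 in these mice, by their sums of 4318 to 4606 FPKM at day 7 against 4983 to 5233 FPKM at baseline (2 of 10 fell in the fit of all groups, beside 2.39% of all genes tested), and their part in the 4 lower receptors was not tested. Over the 8 receptors the median log2 fold change was -0.23 after SNI in Mtor-cKO Adv and -0.12 in Mtor fl/fl DRGs, and 0.10 between genotypes at day 7 and 0.21 at baseline. The median over all genes tested lay within 0.03 of 0 in each.

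Within groups, Ptgir varied most with F2r, P2ry1, F2rl2 and Ptger4 (r from 0.716 to 0.953). Over the 17 libraries, with each group's mean subtracted, r was 0.953 between F2r and Ptgir, 0.806 between P2ry1 and Ptgir, 0.798 between F2rl2 and Ptgir, and 0.739 between F2rl2 and Ptger4. Tnfrsf1a had a negative r with F2rl2 (-0.596), P2ry1 (-0.533) and Ptgir (-0.444). Of the 8 receptors, 6 had an r above 0.5 with the pan-neuronal markers, from 0.546 for Bdkrb2 to 0.955 for Ptgir. Among all genes tested, those with the most similar within-group pattern were Lingo2 (r = 0.972), 6030419C18Rik and Ckmt1 for F2r, Plxnc1 (r = 0.973), Eml1 and Prkcd for F2rl2, and Ngfr (r = 0.974), Rap1gap and Ak5 for Ptgir. They were Dgkk (r = 0.960), Pou4f2 and Cadps2 for P2ry1, Cckar (r = 0.920), Gsk3a and Tex261 for Bdkrb2, and Gadd45g (r = 0.906), Fndc3b and Il1r1 for Tnfrsf1a. For Ptger4 they were Mthfd1 (r = 0.875), Epn2 and Ptk7. All these values share library depth and cell makeup and are descriptions.

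Of 14 sister receptors of the same families, 10 were tested, and 1 was higher and 2 were lower in Mtor-cKO Adv DRGs at each time point, beside 12.9% of all genes higher and 13.1% lower at day 7 and 7.97% and 7.91% at baseline. Ptger1, the Gq-coupled EP1 receptor of prostaglandin E2, was higher by 0.66 on the log2 scale at day 7 (edgeR adjusted p = 4.16e-05) and by 0.76 at baseline (edgeR adjusted p = 3.61e-05). Ptgdr, a receptor of prostaglandin D2, had a log2 fold change of -0.84 at day 7 (edgeR adjusted p = 6.46e-05) and -0.75 at baseline (edgeR adjusted p = 0.000375). Ptgfr, the receptor of prostaglandin F2alpha, had -0.82 at day 7 (edgeR adjusted p = 0.000230) and -1.05 at baseline (edgeR adjusted p = 6.51e-05). The genotypes did not overlap at either time for Ptger1, Ptgdr or Ptgfr, and overlapped at both for Ptger3, Ptger4 and Ptgir. After SNI, Tnfrsf1b, the second TNF receptor, rose by 1.46 in Mtor-cKO Adv DRGs (edgeR adjusted p = 0.00410) and by 0.89 in Mtor fl/fl DRGs (edgeR adjusted p = 0.0487). In Mtor fl/fl DRGs P2ry13, an ADP receptor of microglia and macrophages, rose too, by 1.51 (edgeR adjusted p = 0.0123), a gene named after its values were seen. Its log2 fold change in Mtor-cKO Adv DRGs was 1.10 (edgeR adjusted p = 0.0687). Day 7 and baseline libraries overlapped for P2ry13 in Mtor fl/fl and not in Mtor-cKO Adv DRGs. The 13 macrophage markers summed to 312.6 to 546.3 FPKM at day 7 and 123.0 to 272.7 FPKM at baseline in Mtor-cKO Adv libraries, and to 170.6 to 559.7 and 82.32 to 392.1 FPKM in Mtor fl/fl libraries. After SNI 1 of 13 rose in edgeR in Mtor-cKO Adv DRGs (12 at an unadjusted p under 0.05, 6 by DESeq2), beside 4.57% of all genes tested. None passed in Mtor fl/fl DRGs (6 at an unadjusted p under 0.05, 1 by DESeq2), beside 4.66% of all genes higher. The part of macrophages in Tnfrsf1b and P2ry13 was not tested. In Mtor-cKO Adv DRGs Ptger1 fell by 0.38 after SNI (edgeR adjusted p = 0.0158). Its log2 fold change in Mtor fl/fl DRGs was -0.28 (edgeR adjusted p = 0.0542), and in both genotypes day 7 libraries lay below baseline libraries without overlap.

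Calls on the 3 lists of ligand supply are read beside the shares of all genes tested. Between genotypes these were 12.9% higher and 13.1% lower at day 7 and 7.97% and 7.91% at baseline. After SNI they were 4.57% higher and 2.39% lower in Mtor-cKO Adv and 4.66% and 2.58% in Mtor fl/fl DRGs. Of 12 genes of prostaglandin synthesis, transport and breakdown, 10 were tested, and 3 were higher and 1 lower in Mtor-cKO Adv DRGs at day 7. They were Ptgis, prostacyclin synthase (log2 fold change 1.08, edgeR adjusted p = 0.0440), Ptgds, a prostaglandin D2 synthase (1.02, edgeR adjusted p = 0.0372), Slco2a1, the prostaglandin transporter (0.84, edgeR adjusted p = 0.0249), and Ptges3, a cochaperone that can make prostaglandin E2 (-0.23, edgeR adjusted p = 0.0168). None of the 10 passed edgeR or DESeq2 at baseline or after SNI, with 3 at an unadjusted p under 0.05 after SNI in Mtor-cKO Adv DRGs and none in the other comparisons. Of 20 genes that make or remove kinins and receptor-cleaving proteases, 11 were tested. Cpn1, a subunit of the carboxypeptidase that trims kinins, was lower in Mtor-cKO Adv DRGs (log2 difference -1.02 at day 7, edgeR adjusted p = 0.00220, and -0.86 at baseline, edgeR adjusted p = 0.0134), and Ace, which degrades bradykinin, was higher by 0.76 at day 7 (edgeR adjusted p = 0.0138). After SNI 2 of the 11 rose in both genotypes: Procr, the receptor of protein C that helps it cleave PAR1, by 0.97 in Mtor-cKO Adv and 1.23 in Mtor fl/fl DRGs (edgeR adjusted p = 0.0126 and 0.00118), and Plau, urokinase, by 0.44 and 0.61 (edgeR adjusted p = 0.0467 and 0.00492). Of 6 genes of nucleotide release and breakdown, 5 were tested: Nt5e, which turns AMP into adenosine, was lower in Mtor-cKO Adv DRGs (log2 difference -0.54 at day 7, edgeR adjusted p = 0.000295, and -0.37 at baseline, edgeR adjusted p = 0.00905), and Panx1, an ATP release channel, rose by 0.28 after SNI in Mtor fl/fl DRGs (edgeR adjusted p = 0.0285). The part of the fibroblast and endothelial markers, whose day 7 sums are given beside F2r, in Ptgis, Ptgds and Ace was not tested.

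Of 14 genes of TNF signalling, 12 were tested, and at day 7 Nfkb1 (0.37, edgeR adjusted p = 0.0271) and Birc2 (0.27, edgeR adjusted p = 0.0156) were higher and Tradd, the adaptor of TNF receptor 1 (-0.24, edgeR adjusted p = 0.0396), was lower in Mtor-cKO Adv DRGs. Rela, an NF-kB subunit, rose by 0.29 after SNI in Mtor fl/fl DRGs (edgeR adjusted p = 0.0213), and 1 of the 12 rose in Mtor-cKO Adv DRGs, Ripk1, the kinase of the receptor complex, by 0.64 (edgeR adjusted p = 0.0438), named after its values were seen. Of 22 genes of G protein signalling, 20 were tested, with 2 higher and 1 lower at day 7 and 4 higher and 1 lower at baseline in Mtor-cKO Adv DRGs. Counts on this list and the TNF list are read beside the shares of all genes tested. Between genotypes, 12.9% were higher and 13.1% lower at day 7, and 7.97% and 7.91% at baseline. After SNI, 4.57% rose and 2.39% fell in Mtor-cKO Adv DRGs, and 4.66% and 2.58% in Mtor fl/fl DRGs. Adcy1, a cAMP-forming cyclase, was higher by 0.63 at day 7 (edgeR adjusted p = 9.96e-05), and fell by 0.51 after SNI in Mtor fl/fl DRGs (edgeR adjusted p = 0.00157). Adcy5, another cyclase, was higher by 0.49 at day 7 (edgeR adjusted p = 0.00169) and by 0.34 at baseline (edgeR adjusted p = 0.0343). Plcb4, a phospholipase C of the Gq pathway, was lower at baseline, with -0.51 (edgeR adjusted p = 0.000614), and fell by 0.28 after SNI in Mtor fl/fl DRGs (edgeR adjusted p = 0.0380). Gnai1, a Gi subunit, fell by 0.37 there (edgeR adjusted p = 0.00220), where 2 of the 20 rose and 3 fell. The others past the test, named after their values were seen, were the G protein subunits Gna11 (0.28 at baseline, edgeR adjusted p = 0.00417, and 0.19 after SNI in Mtor fl/fl DRGs, edgeR adjusted p = 0.0438), Gnai2 (0.25 at baseline, edgeR adjusted p = 0.0166) and Gnai3 (0.29 after SNI in Mtor fl/fl DRGs, edgeR adjusted p = 0.0113). The receptor kinase gene Adrbk1 was among them (0.33 at baseline, edgeR adjusted p = 0.0357), as was Prkar2b, a regulatory subunit of protein kinase A (-0.50 at day 7, edgeR adjusted p = 0.00760, and -0.45 after SNI in Mtor-cKO Adv DRGs, edgeR adjusted p = 0.0462).

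The 11 channels that these receptors sensitize were all tested, and 1 was higher and 2 were lower in Mtor-cKO Adv DRGs at day 7, near the 12.9% and 13.1% of all genes. Trpa1, the irritant channel, differed by -0.80 on the log2 scale (edgeR adjusted p = 0.00580). P2rx3, which opens on binding ATP, differed by -0.37 (edgeR adjusted p = 0.00862), and Hcn2, a pacemaker channel, by 0.50 (edgeR adjusted p = 0.0147). At baseline none of the 11 passed edgeR or DESeq2, with 2 at an unadjusted p under 0.05. After SNI, Trpa1 fell by 0.69 in Mtor-cKO Adv DRGs (edgeR adjusted p = 0.0467) and P2rx3 rose by 0.39 in Mtor fl/fl DRGs (edgeR adjusted p = 0.0170). For the difference of the injury effects, none of the genes tested on the 7 lists passed edgeR, with 0 to 5 per list at an unadjusted p under 0.05 and 0 to 1 by DESeq2.

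**Figure D4:**
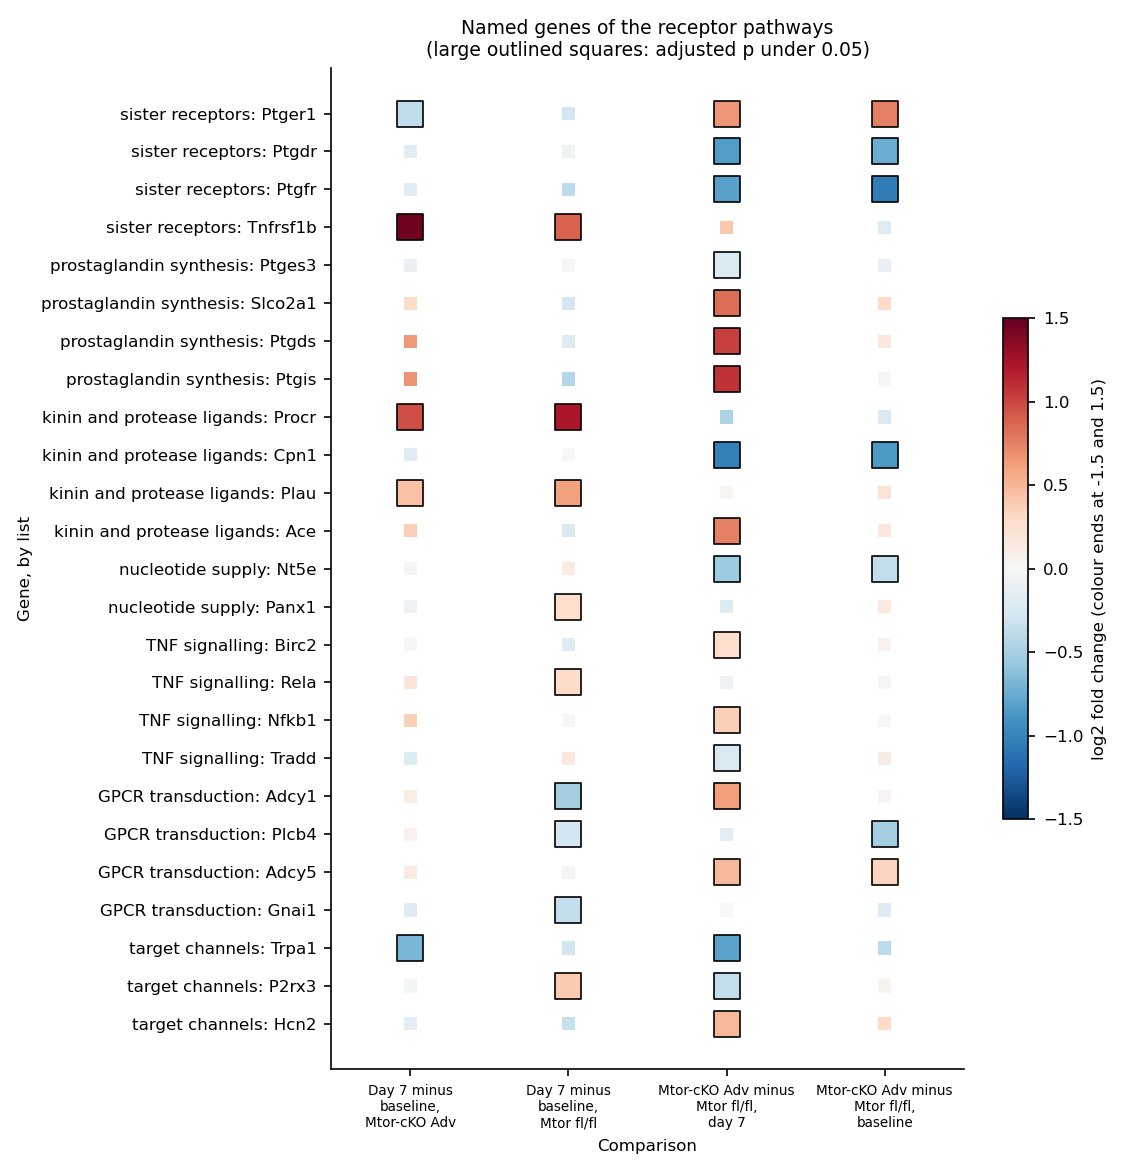
Log2 fold change (colour) of 25 genes of the receptor pathways, named by the smallest adjusted p within each list, in 4 comparisons (columns) from edgeR. Large outlined squares have an adjusted p under 0.05; Ptger1, Ptgdr, Ptgfr, Cpn1, Nt5e and Adcy5 passed between genotypes at both time points, and Procr, Plau and Tnfrsf1b after SNI in both genotypes.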

How the data were processed

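Reads came from a BGISEQ-500. As the genome build, the methods give GRCm38.p5 and the submitters' processing notes mm9. The tools in those notes are RSEM 1.2.12, HISAT2 2.0.4 and Bowtie2 2.2.5. The expected count values deposited by the authors are RSEM estimates per gene, not scaled for depth (34.2% are not whole), and were rounded here. The FPKM values deposited by the authors are scaled to transcript length and library size. Whether counting used strand is not given in the sources used here. In sheets of the same workbooks that were not used, 8 columns belong to 2 libraries with no sample record. Columns of the authors' own comparisons (fold changes, p-values) were not used. Of the entries, 1 without a gene ID (0 counts, 0% of all) was left out, and 27 symbols were mended by gene ID.

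All 17 libraries were fitted in R 4.3.3 with edgeR 4.0.16 (TMM, 1 coefficient per group, quasi-likelihood F test), for the 13408 genes whose mean reached 1 FPKM in any of the 4 groups, and adjusted by Benjamini-Hochberg over all of them. The script was tested on simulated data. The approximate SE divides the absolute log2 fold change by the root of the F value. The labels give no litters or days, so p-values measure only the spread between these mice. Within a group, no 2 libraries agreed within sampling noise (chi-square per degree of freedom at least 3.5). Alternatives were DESeq2 1.42.0, RLE normalization, no filter, filterByExpr, limma 3.58.1 on log2(FPKM + 0.1) and log2(FPKM + 1), the 2 groups compared alone, a replicate block, and each library left out. Leaving out the 2 libraries high in muscle transcripts, Mtor fl/fl replicates 1 and 2, or 3 to 5, was added after the data were seen. Within-group r used log2 CPM with a prior count of 2, and the most similar genes of Ptger3 are not reported here. All 10 receptors are named. From each pathway list, up to 4 genes with the smallest adjusted p among those past the test are named, and others are marked. The receptors, lists and rules were chosen with earlier results of these data known. Positions come from GENCODE M21 on GRCm38. Figures were drawn with Matplotlib 3.10.9 in Python 3.11.15, and tables handled with pandas 2.3.3 and SciPy 1.17.1.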

Additional observations from a re-analysis of the deposited data

Results flagged for a closer look

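Of 40 sets of values, the 10 receptors in 4 groups each, 2 held a library far from the others of its group by Dixon's 95% criterion, which flags about 1 in 20 groups by chance. Tnfrsf1a was at 22.96 FPKM in Mtor-cKO Adv baseline replicate 4, while the other 3 libraries of that group lay between 18.86 and 19.06 FPKM. The same library had the highest sum of the 13 macrophage markers in its group (272.7 FPKM, against 123.0 to 160.8 FPKM in the others), and whether these cells hold the extra Tnfrsf1a was not tested. Bdkrb1 was at 0 FPKM in Mtor-cKO Adv baseline replicate 3, while the other 3 libraries had 1 count each, a gap of a single count. No receptor passed the test for a difference of the injury effects between genotypes.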

How the results depend on the processing

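The 8 receptors tested gave 40 log2 fold changes, and 1112 values under alternatives. Of these, 1042 kept direction and side of the threshold, 5 lost the call, 36 gained one and 29 changed sign. Of the 29, only 1 was itself past the threshold, Ptgir at day 7 (-0.299) without Mtor fl/fl replicates 3 to 5, and none started from a value past it. The replicate numbers do not pair the mice (r of same-numbered deviations from -0.469 to 0.624, and 6 of 24 best with their own number). With the replicate block, 2 receptors passed at baseline between genotypes, against 1 without it, P2ry1 being added (0.581, adjusted p = 0.0107 with edgeR), and no other count moved.

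Counts of receptors past the test were 0 for injury in Mtor-cKO Adv, 1 for injury in Mtor fl/fl, 1 for genotype at baseline and 2 for genotype at day 7. For injury in Mtor-cKO Adv the count was 1 with DESeq2, 6 with the 2 groups alone, 6 without Mtor fl/fl replicates 3 to 5, 4 without replicates 1 and 2, and 0 to 1 with each library left out. The fit of these 2 groups alone called 16.9% of all genes tested higher and 14.3% lower, against 4.57% and 2.39% in the fit of all groups. For injury in Mtor fl/fl it was 0 with the 2 groups alone, 0 without replicates 1 and 2, and 0 to 1 with each library left out. For genotype at baseline it was 2 with DESeq2 and both limma fits, where P2ry1 was added, 2 with no filter and with filterByExpr, where F2rl1, which the minimum level kept out, was added, 3 without replicates 3 to 5, 3 without replicates 1 and 2, and 1 to 2 with each library left out. For genotype at day 7 it was 3 with no filter and with filterByExpr, again through F2rl1, 5 without replicates 3 to 5, 4 without replicates 1 and 2, and 2 to 3 with each library left out. Values of the pathway lists with libraries left out are not reported here. The shares of all genes called in the fits without sets of Mtor fl/fl replicates are not reported here. The counts of those fits are therefore not read as results about the receptors. The cause of the differences between the counts was not tested.

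Sign changes were as follows. For the difference of injury effects, Ptger4 was -0.014 with filterByExpr, -0.018 with the block, -0.068 without the muscle-rich libraries, -0.132 without Mtor fl/fl replicates 1 and 2, and -0.08 to 0.104 with each library left out, and F2r was -0.293 to 0.125 with each left out. Bdkrb2 at day 7 was -0.076 with the block, -0.085 without Mtor fl/fl replicates 3 to 5, and -0.066 to 0.177 with each library left out, and Ptgir at day 7 was -0.032 to 0.228. Ptgir at baseline was -0.12 without replicates 3 to 5. Without replicates 1 and 2, Ptger4 after SNI in Mtor fl/fl was 0.071 and F2rl2 at baseline 0.094. With each library left out, Ptger4 was -0.127 to 0.009 after SNI in Mtor-cKO Adv and -0.168 to 0.014 in Mtor fl/fl, and F2rl2 was -0.048 to 0.214 after SNI in Mtor fl/fl and -0.223 to 0.04 at baseline. Depth limits Bdkrb1 (at most 2 counts per library) and F2rl1 (7.03 to 78.27).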
